A study of Mus musculus with 6 samples.

Results

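Subunits of the mitochondrial respiratory chain were followed in whole mouse lung through 65 genes, out of 18193 genes that the arrays named by a single symbol. A gene was included where its symbol began with Nduf (complex I, assembly factors left out), Uqcr (complex III) or Cox followed by 4, 5, 6, 7 or 8 (complex IV), or was Sdha, Sdhb, Sdhc or Sdhd (complex II). This gave 36 genes of complex I, 4 of complex II, 8 of complex III and 17 of complex IV. The complex was taken from the symbol. Ndufa4, now assigned to complex IV, and its paralogue Ndufa4l2 were therefore counted among the accessory subunits of complex I. The heart-type complex IV subunits Cox6a2, Cox7a1 and Cox8b were set apart from the other 62 genes. The 65 genes were read by 138 probe sets, short oligonucleotide groups that each report 1 intensity, and 122 of these passed the filter on low signal. The 2 genes without a passing probe set were Ndufb4, a complex I subunit, and Cox7b2, a complex IV subunit.

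The study used 6 arrays, each hybridized with RNA from a pool of 3 mice, and each group had 1 female and 1 male pool. The 1 week and 8 weeks groups carried an inducible SM22-dnBMPR2 transgene, a dominant negative form of the type 2 bone morphogenetic protein receptor, that had been switched on for 1 week or 8 weeks. SM22 is a smooth muscle promoter, and mutations of the receptor gene are a known cause of heritable pulmonary arterial hypertension. The male control pool was labelled SM22-rtTA only, which is the transactivator without the receptor transgene, and the female control pool was labelled FVB/N with no genotype. The series design described controls as carrying the transactivator alone and all other mice as having raised right ventricular pressure. Ages, and any induction of the controls, are not given in the sources used here. Freezing and extraction were described for the 4 transgenic pools only, so handling and group cannot be told apart. Values below are log2 intensities after quantile normalization, and a change is a difference of group means in log2 units with its standard error (SE) from limma, n = 2 pools a group. The deposited median intensity of an array was between 50.49 and 63.41. No pool was repeated within a sex. The p-values between groups therefore set a mean change against the disagreement of the female and male changes. limma estimates that spread partly from all probe sets.

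The respiratory chain sits in the inner mitochondrial membrane. Complex I takes electrons from NADH and complex II from succinate, complex III passes them from ubiquinol to cytochrome c, and complex IV hands them to oxygen. Most subunits are made in all tissues, but complex IV swaps some small subunits for muscle isoforms in heart and skeletal muscle. Cox6a2, Cox7a1 and Cox8b are these heart-type forms, and Cox6a1, Cox7a2 and Cox8a are the corresponding ubiquitous forms. The lung also has an isoform of its own, Cox4i2, the alternative to Cox4i1.

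The promoters of the isoform pairs are shown because the results turn on the contrast between them. They are 300 base windows from the RefSeq table (build GRCm38.p6), 250 bases before to 50 after the annotated start, written 5′ to 3′ on the strand of the gene. Capitals mark the letters CGCANGCG, the core of the motif of nuclear respiratory factor 1, which controls many respiratory genes, or the TATA letters TATAAA, both searched on both strands. The Cox7a1 window is chr7:30183921-30184220 on the plus strand. The others lie on the minus strand, Cox8b at chr7:140900397-140900696, Cox6a1 at chr5:115348909-115349208, Cox7a2 at chr9:79759804-79760103 and Cox8a at chr19:7217567-7217866. Cox6a2 is named only.
Cox7a1: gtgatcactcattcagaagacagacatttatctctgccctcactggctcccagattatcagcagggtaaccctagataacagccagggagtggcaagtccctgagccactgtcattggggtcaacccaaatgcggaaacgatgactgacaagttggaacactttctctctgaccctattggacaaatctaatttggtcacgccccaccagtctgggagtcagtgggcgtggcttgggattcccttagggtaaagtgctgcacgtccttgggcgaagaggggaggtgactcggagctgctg
Cox8b: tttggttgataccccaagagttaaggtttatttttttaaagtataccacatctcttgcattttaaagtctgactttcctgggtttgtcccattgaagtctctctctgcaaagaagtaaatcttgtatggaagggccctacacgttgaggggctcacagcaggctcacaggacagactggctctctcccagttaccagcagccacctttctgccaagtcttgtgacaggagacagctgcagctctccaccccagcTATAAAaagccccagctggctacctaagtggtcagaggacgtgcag
Cox6a1: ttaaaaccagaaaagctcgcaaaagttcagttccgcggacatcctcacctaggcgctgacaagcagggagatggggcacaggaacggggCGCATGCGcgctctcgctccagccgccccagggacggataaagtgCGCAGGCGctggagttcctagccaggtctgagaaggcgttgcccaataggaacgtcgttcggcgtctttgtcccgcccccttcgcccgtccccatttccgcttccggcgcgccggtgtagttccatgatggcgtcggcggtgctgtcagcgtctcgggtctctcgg
Cox7a2: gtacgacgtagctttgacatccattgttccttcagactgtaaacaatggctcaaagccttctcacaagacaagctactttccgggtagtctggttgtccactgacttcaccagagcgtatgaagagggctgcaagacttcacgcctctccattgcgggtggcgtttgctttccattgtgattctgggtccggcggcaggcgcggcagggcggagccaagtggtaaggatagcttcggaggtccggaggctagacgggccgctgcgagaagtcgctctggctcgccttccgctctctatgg
Cox8a: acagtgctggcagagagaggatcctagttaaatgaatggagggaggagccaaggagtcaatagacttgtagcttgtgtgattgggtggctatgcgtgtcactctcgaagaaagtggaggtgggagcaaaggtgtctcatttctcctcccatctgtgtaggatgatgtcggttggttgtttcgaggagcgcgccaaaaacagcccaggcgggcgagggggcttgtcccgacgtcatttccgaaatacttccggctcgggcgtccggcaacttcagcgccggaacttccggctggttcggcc

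Windows were matched for 52 of the 65 genes. The CGCANGCG core was found in 14 of the 50 matched genes other than the heart-type ones (28%), against 9.22% of 27025 genes in the table. The 14 genes were Cox6a1, Ndufa12, Ndufa5, Ndufa6, Ndufa7, Ndufa8, Ndufb10, Ndufb4, Ndufs5, Sdha, Sdhd, Uqcr10, Uqcr11 and Uqcrc1. It was in neither of the 2 matched heart-type windows. TATAAA was found in 5 of the 50 (10%), against 15.7% of all genes, and in the Cox8b window it began at base 255, after the annotated start. The heart-type windows held few CpG pairs, 2 in Cox8b and 7 in Cox7a1, whereas the 52 windows of the other members held 8 to 39 with a median of 19, and the median over all windows was 7. These are matches of letters in a window, and no binding was measured.

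After 1 week of transgene induction, levels of most subunits were slightly above control. The median change of the 62 genes was 0.099 (0.075 in females and 0.13 in males), and over all genes that passed the filter it was 0.031. The mean log2 level of the 62 genes was 10.11 and 9.99 in the female and male controls, then 10.19 and 10.13 at 1 week. The male 1 week pool thus lay close to the female control. Without the female control pool the median change was 0.13, and without the male control pool 0.071. Of the 62 genes, 46 were higher in both sexes (74.2%, against 32.6% of genes that passed the filter) and 2 were lower in both (3.23%, against 21.1%). Both 1 week pools lay above both control pools for 25 of the 62 genes (40.3%), against 15.1% of the 13215 genes that passed the filter, and both lay below for 0 genes, against 7.79%. Counted over probe sets with no filter, both pools lay above both controls for 43 of 138 (31.2%), against 10.5% of all 45037, and below for 1 (0.725%), against 9.94%. By limma, 0 of 122 member probe sets had an adjusted p below 0.05, and 0% of the 27022 tested did. At an unadjusted p below 0.05 there was 1 of 122 members, against 5.5% of all probe sets.

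The 4 complexes were close to each other at 1 week. The median change was 0.11 in complex I, 0.15 in complex II, 0.080 in complex III and 0.097 in complex IV without the heart-type genes. Within complex I, the 6 core subunits, which carry the redox centres, had a median of 0.094 and the 30 accessory subunits one of 0.12. The highest complex I values with the same sign in both sexes were those of the accessory subunits Ndufb1 (0.44 ± 0.17 SE) and Ndufb3 (0.19 ± 0.14). Sdhc, a membrane anchor of complex II, was at 0.23 ± 0.15 and Uqcr10, a small complex III subunit, at 0.16 ± 0.13. Ndufa4l2, a paralogue of Ndufa4 known as a hypoxia-induced gene, was at -0.057 ± 0.15. Adjusted p from limma was 0.90 or higher for each of these.

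**Figure D1:**
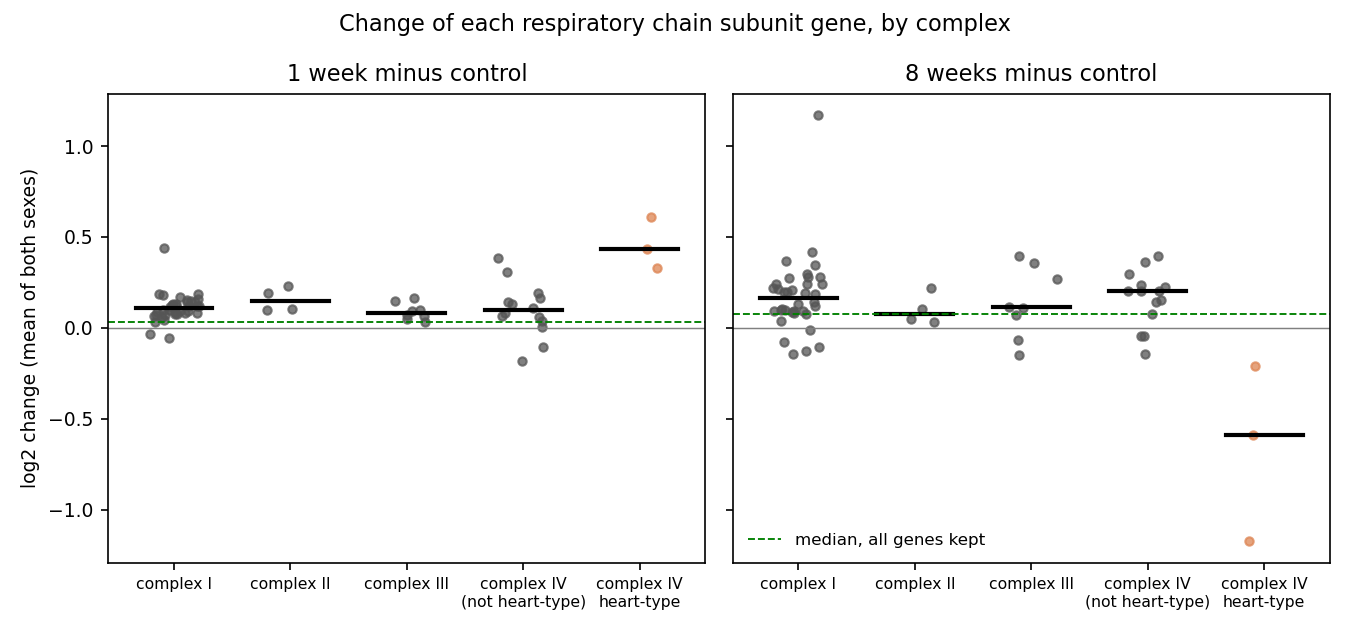
Log2 change of each of the 65 subunit genes (points, mean of the female and male changes) at 1 week and 8 weeks against control, by complex; black bars are medians and the dashed line is the median over all genes that passed the filter. The heart-type median lies above those of the other complexes at 1 week (0.43) and below them at 8 weeks (-0.59), where it was -1.40 in females and 0.11 in males.

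After 8 weeks the median of the 62 genes was 0.15 above control (0.12 in females and 0.21 in males), and over all genes that passed the filter it was 0.077. Of the 62 genes, 43 were higher in both sexes (69.4%, against 42.2% of genes that passed the filter) and 5 lower in both (8.06%, against 25%). Both 8 week pools lay above both controls for 29 genes (46.8%), against 27.2% of the genes that passed the filter, and below for 1, Uqcrfs1 (1.61%, against 14.1%). Over probe sets with no filter, both pools lay above for 56 of 138 (40.6%), against 18.3% of all, and below for 7 (5.07%), against 15.2%. By limma, 0 of 122 member probe sets passed at an adjusted p below 0.05, where 0.596% of all probe sets did. At an unadjusted p below 0.05 there were 14 of 122 members (11.5%), against 23% of all probe sets, and 12 of these were higher (9.84%), against 11.8% of all probe sets. The list as a whole lay higher, while its share of single probe sets past the threshold was below the background.

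The size of this shift varied with the scaling of the arrays and with the pools used. With values as deposited the median of all probe sets moved to -0.13 at 8 weeks, and with arrays centred on their medians to 0.14, against 0.033 after quantile normalization. Relative to that median the 62 genes were higher by 0.12 after quantile normalization, by 0.20 as deposited and by 0.18 after centring. After quantile normalization this was 0.20 without the female control pool, 0.073 without the male control pool, 0.18 without the female 8 week pool and 0.065 without the male 8 week pool. These differences set members at their brightest probe set against all tested probe sets, which is not a like basis. The median of genes that passed the filter, taken at their brightest probe set like the members, was 0.077. Against it the 62 genes, at 0.15 after quantile normalization, were higher by less than the differences to all probe sets show. Markers of other cells moved too. Summed intensity of 10 macrophage markers was 2513.1 and 3747.8 in controls (female, then male) and 11152 and 9054.1 at 8 weeks. Of these, 10 of 10 were higher in both sexes, against 42.2% of genes that passed the filter. Summed intensity of 8 smooth muscle markers was 12765.9 and 11262.4 in controls and 9904 and 9468.7 at 8 weeks. None of the macrophage or smooth muscle markers was at the floor in any pool. In other lists, 8 of 9 neutrophil and 7 of 8 alveolar type 2 markers were higher in both sexes. Lower in both were 7 of 8 ciliated cell and 5 of 7 endothelial markers, against 25% of genes that passed the filter. Of 6 alveolar type 1 markers 2 were higher in both sexes and 2 lower. The part of any of these cells in the subunit levels was not tested. In whole lung RNA, fewer cells of a type and less RNA per cell cannot be told apart.

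Complex IV without the heart-type genes had the highest median at 8 weeks, 0.20, then complex I with 0.16, complex III with 0.11 and complex II with 0.075. These differences between complexes were not tested. The core subunits of complex I had a median of 0.14 and the accessory ones one of 0.16.

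The highest value of the 62 genes belonged to Ndufb1, an accessory subunit of the membrane arm of complex I. It was at 5.32 in the female and 5.01 in the male control pool, 5.70 and 5.52 at 1 week, then 6.67 and 6.01 at 8 weeks. The groups did not overlap, and both sexes went up at each step. The 8 week change was 1.17 ± 0.17 SE (adjusted p = 0.066, limma). The adjusted p was 0.041 after centring and 0.045 with limma's trend and robust options. No other setting that kept all pools brought it below 0.05. Calls over all probe sets rose as well, from 161 to 705 after centring and 1916 with trend and robust. Without the male 8 week pool the change was 1.38. Ndufb1 was read by 1 probe set, a dim one.

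Other accessory subunits of complex I followed with smaller values. Ndufb2 was at 9.89 and 9.84 in the control pools, 10.004 and 9.93 at 1 week, then 10.26 and 10.31 at 8 weeks, a change of 0.42 ± 0.13 (adjusted p = 0.17, limma). The 8 week pools lay above all 4 other pools. A dim probe set of Ndufb2 went the other way at -0.26, below the signal filter. The core iron-sulphur subunit Ndufs1 had the lowest complex I value, at 9.45 and 9.25 in controls, 9.61 and 9.44 at 1 week, then 9.41 and 8.996 at 8 weeks. Its 8 week change was -0.15 ± 0.14, inside the spread of the pools, and the accessory subunit Ndufa12 was at -0.13 ± 0.14. After centring these values were 0.018 and 0.060, so neither has a settled sign. Both lay below the median of all probe sets in either case, 0.033 here and 0.14 after centring. The other 3 Ndufa12 probe sets gave -0.23 to -0.059 at 8 weeks.

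In complex II, the membrane anchor Sdhd had the highest 8 week value, 0.22 ± 0.13. The catalytic flavoprotein Sdha was at 0.047 ± 0.13 and the iron-sulphur subunit Sdhb at 0.032 ± 0.13, named here to complete the complex after their values were seen. Sdhc was at 0.10 ± 0.15 at 8 weeks.

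In complex III, Uqcrq, a small subunit next to cytochrome b, was at 10.01 and 9.79 in the control pools, 10.04 and 9.95 at 1 week, then 10.37 and 10.22 at 8 weeks. The 8 week pools were the highest, with a change of 0.40 ± 0.13 (adjusted p = 0.18, limma), while another Uqcrq probe set above the filter gave -0.23. Uqcr11, chosen after its values were seen, was at 10.33 and 10.18 in controls and 10.61 and 10.61 at 8 weeks. The Rieske iron-sulphur protein Uqcrfs1 was at 10.28 and 10.23 in controls and 10.12 and 10.08 at 8 weeks. Both 8 week pools lay below both controls, by 0.15 on average, but this became 0.020 higher after centring, where the median of all probe sets was 0.14.

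**Figure D2:**
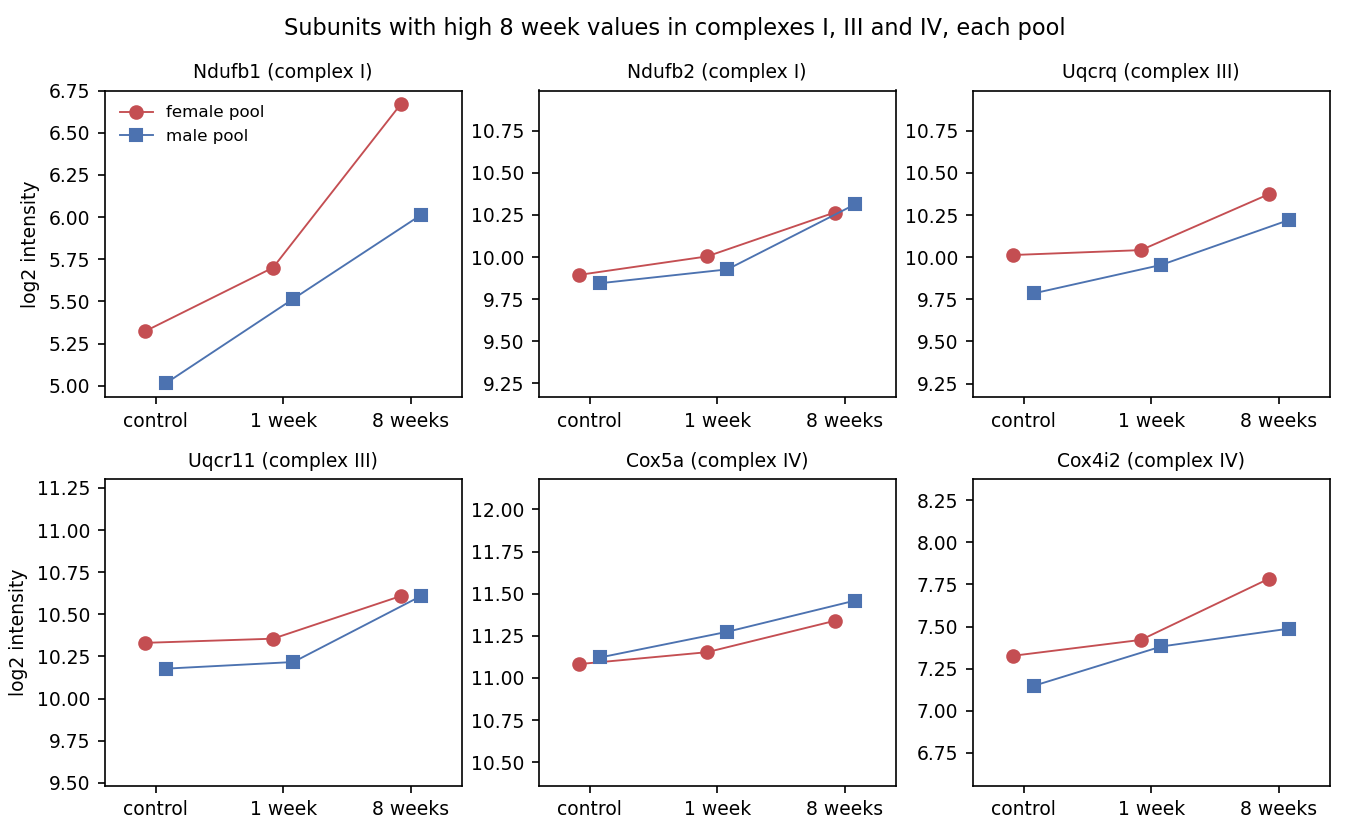
Log2 intensity of 6 subunits in each pool (circles female, squares male), chosen for high 8 week values; all panels span the same range of log2 units. In each panel both 8 week pools lie above both control pools, most in Ndufb1 (6.67 and 6.01 against 5.32 and 5.01).

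Complex IV genes outside the heart-type group had 8 week changes from -0.14 to 0.40, and none passed limma's adjusted threshold. Cox4i1, the common isoform of the regulatory subunit 4, was at 11.80 and 11.80 in the control pools, 11.91 and 11.86 at 1 week, then 11.91 and 11.99 at 8 weeks. Its lung isoform Cox4i2 was at 7.33 and 7.15, then 7.42 and 7.38, then 7.78 and 7.49. Both 8 week pools of Cox4i2 were above the other 4 pools, and the change was 0.40 ± 0.14 (adjusted p = 0.19, limma). Cox4i2 is known from smooth muscle and pericytes of lung vessels. The 8 smooth muscle markers had a median 8 week change of -0.25, and none passed limma's adjusted threshold. Of these markers, 7 of 8 were lower in both sexes, against 25% of genes that passed the filter. The difference between the Cox4i2 and Cox4i1 changes was not tested.

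Among the other isoforms, Cox7a2l, a factor of supercomplex assembly, was at 0.20 ± 0.17 at 8 weeks, and Ndufa4, named for complex I and now assigned to complex IV, at 0.13 ± 0.13. Ndufa4l2 was at -0.11 ± 0.15. Cox8c, a form known from testis, was at 0.39 ± 0.27 at 1 week and 0.20 ± 0.27 at 8 weeks, and its female control pool (6.34) stood below the other 5 pools (6.99 to 7.31).

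The heart-type subunits did not follow the others. Cox6a2 was at 8.61 in the female and 8.31 in the male control pool, 8.85 and 8.94 at 1 week, then 7.02 and 7.56 at 8 weeks. The 1 week pools were the highest and the 8 week pools the lowest in both sexes, with no overlap of the groups. The 8 week change from control was -1.18 ± 0.23 SE (adjusted p = 0.095, limma) and the change from 1 week -1.61 ± 0.23 (adjusted p = 0.11). The trend and robust option of limma gave adjusted p of 0.020 and 0.015 for these. No other setting that kept all pools brought either below 0.05. With that option calls over all probe sets rose as well, from 161 to 1916 and from 0 to 752. Leaving out the male 8 week pool gave a change from control of -1.50. A dimmer Cox6a2 probe set was at 0.033 at 1 week and -0.86 at 8 weeks.

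Cox7a1 was at 7.63 and 7.49 in the control pools, 7.85 and 8.49 at 1 week, then 6.22 and 7.72 at 8 weeks. The male 1 week pool was the highest and the female 8 week pool the lowest, and the male 8 week pool lay above both controls. The 8 week change of -0.59 ± 0.40 (adjusted p = 0.42, limma) came from the female pool alone (-1.40, against 0.23 in males), and without that pool it was 0.035. Without the female control pool it was 0.014.

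Cox8b was at 7.86 and 7.94 in the control pools, 8.11 and 8.35 at 1 week, then 7.34 and 8.05 at 8 weeks. Again both 1 week pools were above the controls and only the female 8 week pool was below. The 8 week change was -0.21 ± 0.20 (adjusted p = 0.56, limma), and 0.070 without the female 8 week pool. The median of the 3 genes was 0.43 at 1 week (0.23 in females and 0.63 in males) and -0.59 at 8 weeks, where the sexes had opposite signs (-1.40 in females and 0.11 in males). Without the female 8 week pool the 8 week median was 0.035, without the male one -1.21, without the female control pool -0.011 and without the male control pool -1.19. Between 8 weeks and 1 week the median was -1.20, and both 8 week pools lay below both 1 week pools for all 3 genes, against 15.7% of genes that passed the filter. For the median between 8 weeks and 1 week, leaving out the female 8 week pool gave -0.58 and the male one -1.82.

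The ubiquitous isoforms stayed within a narrow range. Cox6a1 was at 11.82 and 11.70 in the control pools, 11.82 and 11.98 at 1 week, then 11.75 and 11.67 at 8 weeks, an 8 week change of -0.047 ± 0.14. Cox7a2 was at 11.75 and 11.70, then 11.72 and 11.80, then 11.99 and 11.91, a change of 0.23 ± 0.13. Cox8a was at 11.13 and 10.93, then 11.24 and 11.08, then 11.13 and 10.84, a change of -0.046 ± 0.13. The small values of Cox6a1 and Cox8a turned positive after centring, at 0.14 and 0.13, where the median of all probe sets was 0.14. At 8 weeks another Cox6a1 probe set gave 0.22, another Cox7a2 one 0.22, and the other Cox8a ones -0.015 and 0.41.

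**Figure D3:**
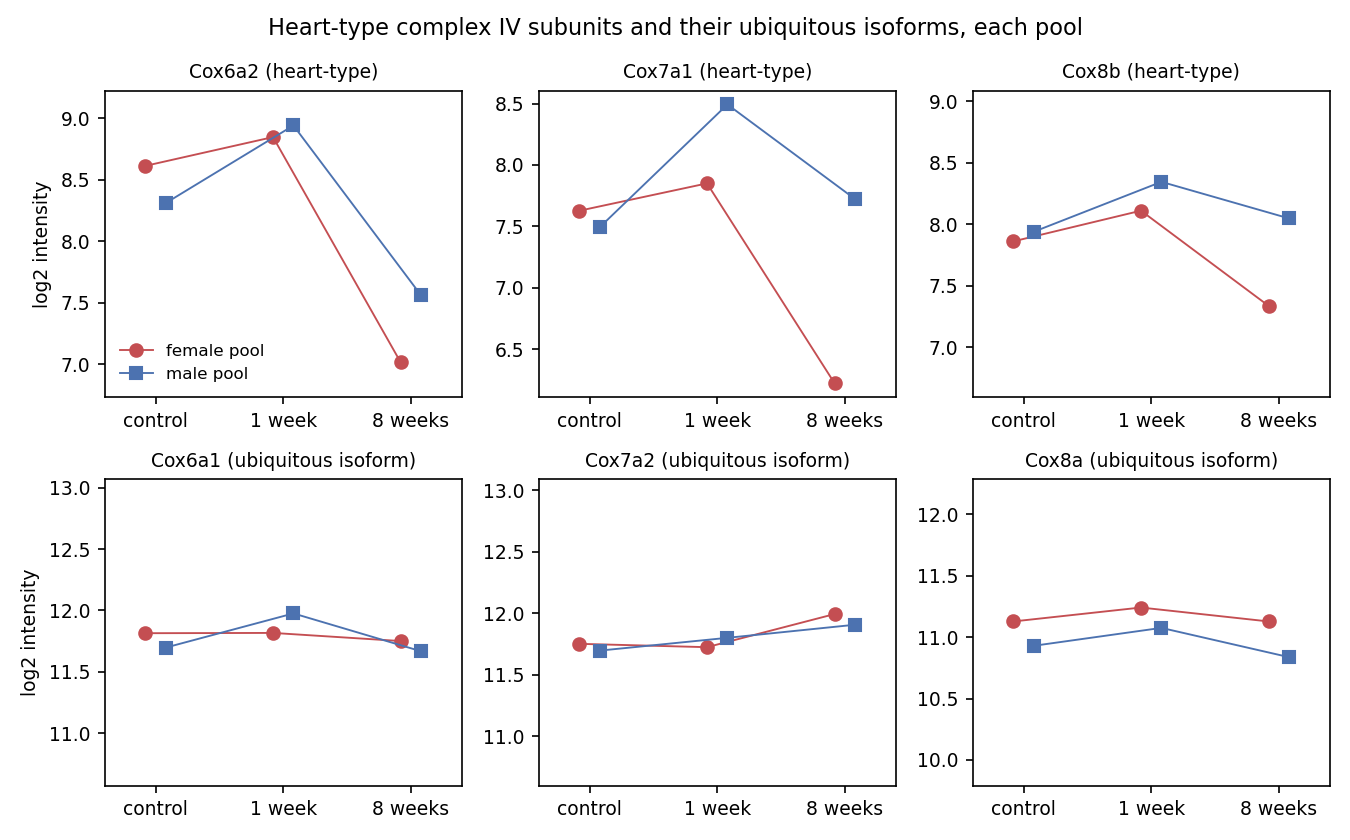
Log2 intensity of the heart-type subunits (top) and the ubiquitous isoform of each (bottom) in each pool (circles female, squares male), with panels of equal span. Cox6a2 goes from 8.61 and 8.31 in controls to 7.02 and 7.56 at 8 weeks, while Cox6a1 stays between 11.67 and 11.98.

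Heart muscle markers and the heart-type subunits had the same highest and lowest pools by summed intensity, but their medians parted in some pools. The summed intensity of 24 such genes (myosin, troponin, titin and others) in the control, 1 week and 8 week pools was 21130.8, 23799.9 and 5750.9 in females and 20455.4, 29153 and 12139.5 in males. In the same order, the summed intensity of the 3 heart-type subunits was 822, 968 and 365.6 in females and 743.5, 1177.6 and 664.6 in males. In both sums the male 1 week pool was the highest and the female 8 week pool the lowest. The marker median at 1 week was -0.011 in females and 0.49 in males, against 0.23 and 0.63 for the heart-type subunits. At 8 weeks it was -2.50 and -0.64, against -1.40 and 0.11, and -1.44 for the mean of both sexes. At 8 weeks 21 of the 24 markers (87.5%) were lower in both sexes, against 25% of genes that passed the filter. At an unadjusted p below 0.05 (limma) 17 were lower, against 827 of the 13215 genes that passed the filter. None of the markers passed the adjusted threshold. Myh6, the adult cardiac myosin heavy chain of the mouse, was at 11.18 and 11.06 in controls, 10.91 and 11.36 at 1 week, then 7.80 and 9.17 at 8 weeks. Heart muscle is known in the walls of the large pulmonary veins of mice, and heart tissue can be carried over in dissection, and the part of either in these levels was not tested.

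Markers of skeletal muscle and fat were read in the same way. Summed intensity of 12 skeletal muscle markers was 439, 598 and 531.6 in the female control, 1 week and 8 week pools, with 4, 3 and 4 genes at the floor, and 642.4, 1144.9 and 597.9 in the male ones, with 3, 0 and 3. The male 1 week pool was again the highest. Of 5 measured brown fat markers the sums were 198.6, 237.2 and 266 in females and 193.7, 261.2 and 235.4 in males. At 8 weeks 2 of the 5 were higher in both sexes and 2 lower, against 42.2% and 25% of genes that passed the filter. Dio2 was at 1.497 and Cidea at -1.16. Ucp1 and Cidea, the defining genes, were under the signal filter, and Cidea was at the floor in both 8 week pools. The sums of 6 white fat markers were 2493.6, 3596.9 and 2762.3 in females and 2810.8, 3082.2 and 3287.8 in males. Their mean log2 level differed from the control mean by 0.56 and 0.39 in the female and male 1 week pools and by -0.25 and 0.47 at 8 weeks. At 8 weeks Adipoq, the fat cell hormone adiponectin, had changes of -2.42 in females and 0.020 in males. At that time 3 of the 6 genes (50%) were higher in both sexes, against 42.2% of genes that passed the filter. The part of muscle or fat in the heart-type levels was not tested.

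**Figure D4:**
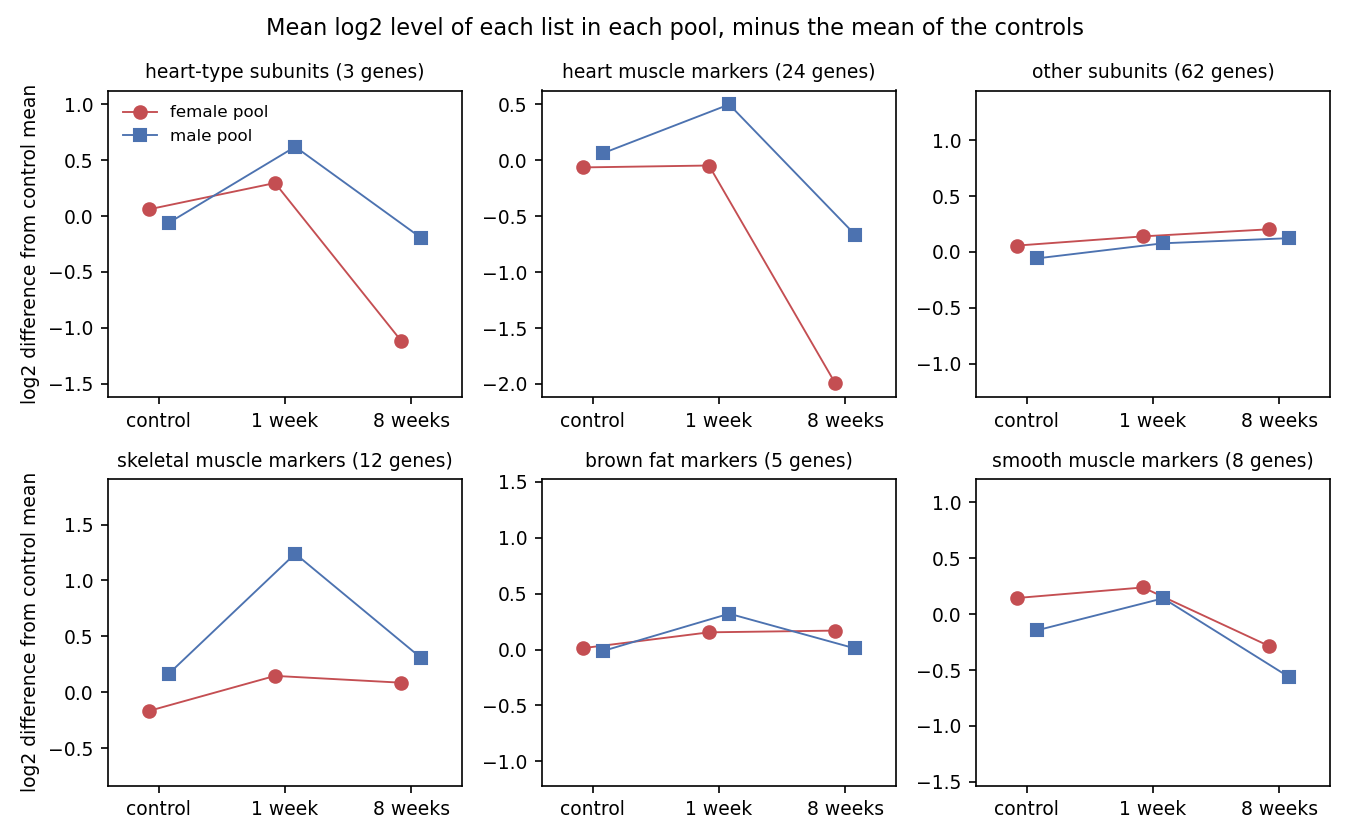
Mean log2 level of each gene list in each pool minus the mean of the 2 control pools (circles female, squares male), with panels of equal span. The heart-type subunits (-1.12 and -0.20 in the female and male 8 week pools) and the heart muscle markers (-1.99 and -0.67) lie low at 8 weeks, and the other 62 subunits lie at 0.20 and 0.12.

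Between 8 weeks and 1 week the 62 genes had a median change of 0.058, against 0.042 over all genes that passed the filter. By limma, 0 of 122 member probe sets had an adjusted p below 0.05, and 0% of all probe sets did. At an unadjusted p below 0.05 there were 8 of 122 (6.56%), against 18.5% of all. With values as deposited the median was -0.017, so no direction is given for the list.

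More member probe sets passed between the sexes than between the groups, where there were 0. By limma, 4 of 122 member probe sets (3.28%) passed between female and male pools at an adjusted p below 0.05, below the 8.3% of all probe sets, with 2 higher in females (3.46% of all) and 2 lower (4.85% of all). Cox6b2, a complex IV subunit form known from testis, was at 9.23, 9.52 and 9.62 in the female control, 1 week and 8 week pools and 8.29, 8.63 and 8.63 in the male ones. The sexes did not overlap, and females were higher by 0.94 ± 0.11 SE (adjusted p = 0.021). Cox6b2 has 1 probe set, and its 8 week change from control was 0.36 ± 0.13 (adjusted p = 0.20). Ndufa7, an accessory subunit of complex I, was at 11.05, 11.28 and 11.21 in females and 10.53, 10.59 and 10.56 in males at its brightest probe set, a difference of 0.62 ± 0.11 (adjusted p = 0.042). The other 4 Ndufa7 probe sets gave 0.052 to 0.33.

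For both genes that passed as lower in females, the call and the brightest probe set differed. Ndufb6 at the called probe set was at 9.39, 9.34 and 9.86 in females and 10.07, 10.11 and 10.60 in males, a difference of -0.73 ± 0.11 (adjusted p = 0.030, limma), and -0.077 at its brightest. Sdhd at the called probe set was at 8.95, 9.11 and 9.02 in females and 9.84, 9.73 and 10.13 in males, a difference of -0.87 ± 0.14 (adjusted p = 0.036), and 0.063 at its brightest. The called Ndufb6 probe set is of a class whose probes match several transcripts of a gene, and the Sdhd one is of a class whose probes may cross-hybridize. Leaving out either control pool or either 1 week pool left 0 member probe sets called, and leaving out either 8 week pool left 1, Cox6b2. Anything else that differed between female and male pools, such as strain background, cannot be told apart from sex.

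**Figure D5:**
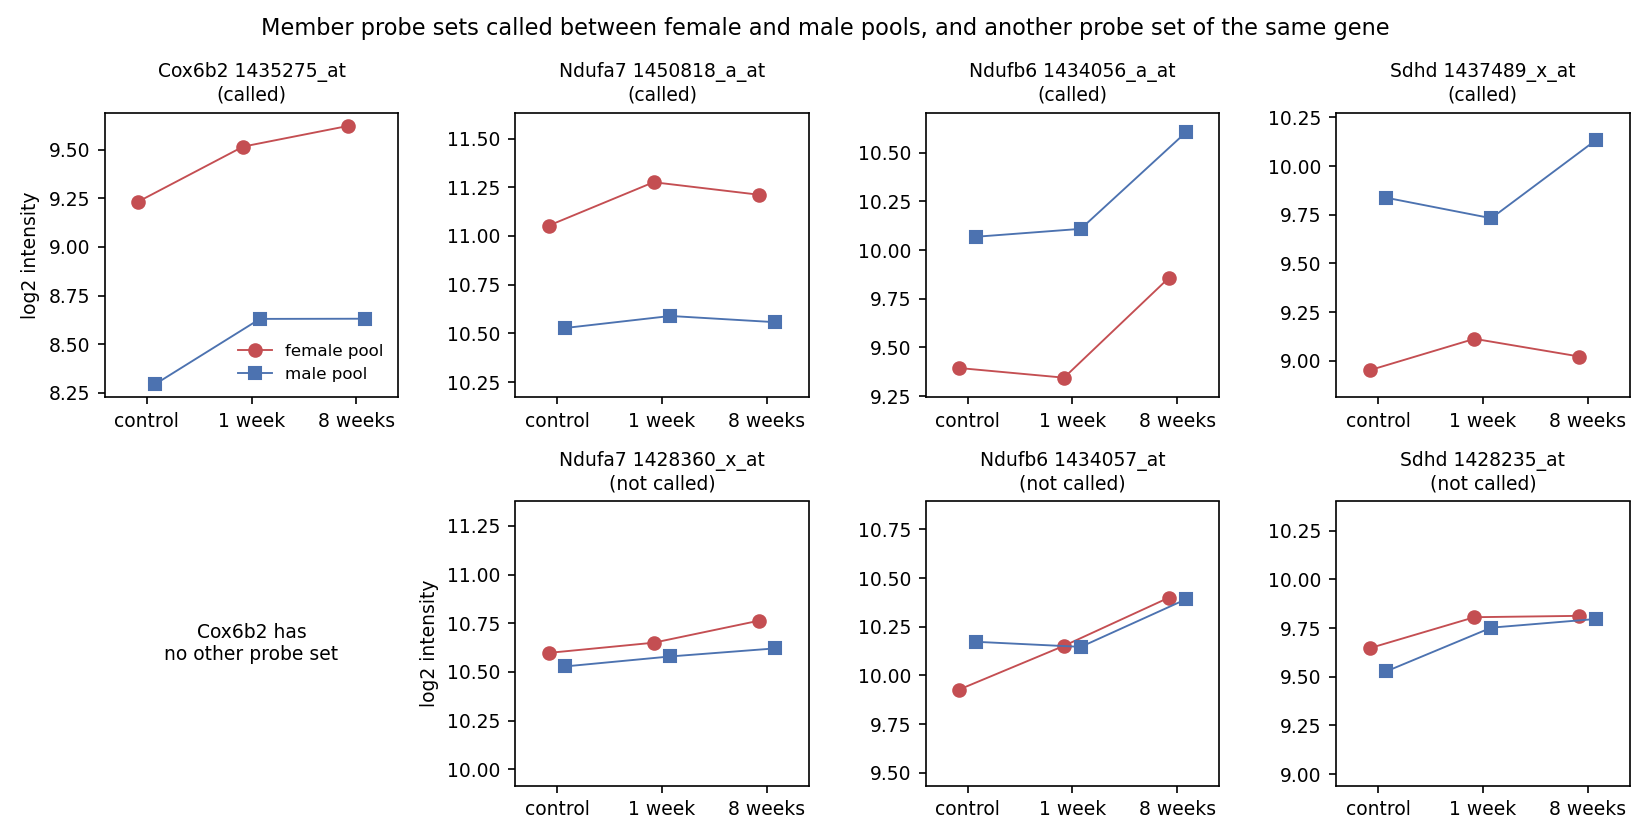
Log2 intensity in each pool (circles female, squares male) of the 4 member probe sets called between the sexes (top) and, for the 3 genes that have one, of the brightest other probe set (bottom), with panels of equal span. The sexes lie apart in all 4 called probe sets, by 0.94 in Cox6b2, and by -0.077 to 0.094 in the 3 others.

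The test of whether the transgene effect, both durations together, differed between the sexes called 0% of all probe sets and no member at an adjusted p below 0.05 (limma). At an unadjusted p below 0.05 there were 2 of 122 members (1.64%), against 2.35% of all. For Cox7a1 the female effect was lower than the male one by 1.20 ± 1.08 SE (adjusted p = 0.9999). The 2 durations stood as replicates in this test, so a gene that moves differently at 1 week and 8 weeks, such as Cox7a1, has a wide SE. For such genes the test cannot show whether the sexes differ.

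Other genes of the same pathway were read from fixed lists, and none of their measured genes passed limma's adjusted threshold at 8 weeks. For 18 subunits of ATP synthase, which uses the proton gradient that the chain builds, the median was 0.076 at 1 week and 0.16 at 8 weeks, against 0.031 and 0.077 over all genes that passed the filter. Both 8 week pools lay above both controls for 10 (55.6%), against 27.2% of genes that passed the filter. Atp5e was highest, at 10.73 and 10.47 in controls, 10.80 and 10.71 at 1 week, then 11.21 and 11.15 at 8 weeks (0.58 ± 0.14, adjusted p = 0.11). For 41 assembly factors of complexes I to IV the median was 0.065 and 0.16, with the complex I factor Ndufaf5 at 0.79 ± 0.14 and Acad9, which also helps to assemble complex I, at -0.60 ± 0.23 at 8 weeks. Cytochrome c (Cycs) was at 0.18 ± 0.14.

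Regulators of mitochondrial biogenesis went both ways. The median of 14 was -0.093 at 1 week and -0.063 at 8 weeks. The 8 week median was 0.042 in females and 0.073 in males, so its sign differs from that of the mean of both sexes. In both sexes 6 genes were higher (42.9%) and 4 lower (28.6%), near the 42.2% and 25% of genes that passed the filter. Gabpb1, a subunit of nuclear respiratory factor 2, was at 0.30 ± 0.14 at 8 weeks, with Tfb2m, a mitochondrial transcription factor, at -0.56 ± 0.15 and Gabpa, the other subunit of that factor, at -0.32 ± 0.16 at 8 weeks. Nrf1 was at -0.018 ± 0.17 and Tfam, which packages mitochondrial DNA, at 0.041 ± 0.13, both chosen after their values were seen. The 12 enzymes of the citric acid cycle had medians of 0.058 and 0.090, with Idh3a at -0.39 ± 0.18 and Suclg1 at 0.31 ± 0.15 at 8 weeks. The 13 genes of fatty acid oxidation had medians of 0.085 and 0.048, with Etfb, which feeds electrons toward ubiquinone, at 0.30 ± 0.13 and Acadl at -0.17 ± 0.13.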

How the data were processed

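Each of 6 arrays held whole lung RNA of a pool of 3 mice. Intensity values on a linear scale were deposited by the authors, from 10 to 11513.01. How probes were summarised and scaled is not given in the sources used here. Labelling as biotin antisense RNA is per the labels' protocols. Here arrays were quantile normalized, values under the 20th percentile (15.46, log2 3.95) were raised to it, log2 was taken, and 27022 of 45037 probe sets with a mean above the 40th percentile were tested. Symbols came from the platform annotation. limma 3.58.1 (R 4.3.3) fitted group and sex over all arrays (2 residual degrees of freedom, prior 2.77), and, separately, the interaction of transgene and sex, with Benjamini-Hochberg adjustment over all tested probe sets. Simulated data with large planted changes were used to check the size of the estimates. Power for changes as small as most of those here was not tested. A gene stands at its brightest probe set. Named were isoforms, the highest and lowest genes of a complex with the same sign in both sexes, calls between the sexes, and the largest changes of each pathway list. Members and lists were chosen with earlier results of these data known. The number of arrays limits precision. Other scalings, floors, filters, probe set choices, models and leaving out each pool were tried. Figures used matplotlib 3.10.9.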

Additional observations from a re-analysis of the deposited data

Results flagged for a closer look

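For 5 of the 65 genes, each at its brightest probe set, both sexes were above control at 1 week and below it at 8 weeks. The change between 8 weeks and 1 week was -1.61 for Cox6a2 (adjusted p = 0.11, limma), -0.19 for Cox6a1 (adjusted p = 0.53), -0.32 for Ndufs1 (adjusted p = 0.31), -0.20 for Uqcrfs1 (adjusted p = 0.46) and -0.13 for Uqcrc2 (adjusted p = 0.61), so the difference passed the threshold for none of them. Another Uqcrc2 probe set was higher at 8 weeks in both sexes, by 0.50 and 0.28. So was another Cox6a1 probe set, by 0.22 and 0.21, and its change between 8 weeks and 1 week was 0.23. A dimmer Cox6a2 probe set was below control in females at 1 week (-0.53). The reverse held for Cox7b2, below control at 1 week and above it at 8 weeks with a change of 0.34 between them, not tested because it was under the signal filter. The 2 durations share the control pools. The opposite signs at Cox6a1, Ndufs1 and Uqcrfs1 rest on 8 week changes that turn positive after centring the arrays. Centring also moved the median of all probe sets at 8 weeks from 0.033 to 0.14.

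For 4 genes both female transgenic pools were below the female control and both male ones above the male control. The interaction was -1.28 for Cox7c (unadjusted p = 0.0075, adjusted p = 0.9999, limma), -0.33 for Cox7a2l, -0.35 for Ndufa5 and -0.28 for Uqcrh (adjusted p = 0.9999 for each). The female control pool of Cox7c, at 6.69, stood above its other 5 pools (5.41 to 5.91). Other probe sets of each of the 4 genes did not show the pattern.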

How the results depend on the processing

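No paired analysis was possible because the labels give no shared replicate number, and sex is already a term of the model. Of 554 recomputed gene changes (35 changes, up to 16 settings), 520 kept direction and side, 27 reversed and 7 became called. The cause was not tested. Members called at 8 weeks, 0 here, were 1 after centring, 5 with trend and robust (Cox5a, Cox6a2, Ndufb6, Ndufb2, Ndufb1), and 0 to 2 leaving out a pool (2 without the male 8 week pool). Between 8 weeks and 1 week 2 were called with trend and robust. Between the sexes, 4 here, it was 0 with no filter, 1 without suffixed probe sets, 13 with trend and robust, and 0 to 1 leaving out a pool. Of all probe sets, 161 passed at 8 weeks here, 1916 with trend and robust, 1071 without the male 8 week pool, 439 to 705 with other scalings, floors, the pseudocount of 16 or the stricter filter, and 0 with no filter, without the sex term or without any other pool. Between the sexes 2244 passed here, 4183 with trend and robust, 1462 without suffixed probe sets, 1279 without either 8 week pool, 2 without either 1 week pool, and 0 with no filter or without either control pool. Between 8 weeks and 1 week, 0 here, it was 62 with the stricter filter and 752 with trend and robust.

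The median of the 62 genes was 0.16 at 1 week after centring. At 8 weeks it was 0.065 as deposited, 0.32 after centring and 0.12 to 0.22 leaving out a pool. Between 8 weeks and 1 week it was -0.017 as deposited, 0.17 after centring, 0.044 with a floor at the 40th percentile, 0.070 with the mean of probe sets, and 0.029 to 0.081 leaving out a pool. The heart-type median was 0.12 to 0.74 at 1 week and -1.82 to -0.58 between 8 weeks and 1 week leaving out a pool. Centring moved the median of all probe sets at 8 weeks from 0.033 to 0.14. Reversed 8 week values after centring were 0.14 for Cox6a1, 0.13 for Cox8a, 0.046 for Ndufa4l2, 0.018 for Ndufs1, 0.060 for Ndufa12 and 0.020 for Uqcrfs1. With the mean of probe sets they were 0.085 for Cox6a1, 0.12 for Cox8a and -0.044 for Sdhc, as deposited -0.037 for Cox8c and -0.0068 for Sdhc, and without suffixed probe sets -0.26 for Ndufb2 and -0.23 for Uqcrq. Leaving out a pool in turn gave 8 week values of -1.21 to 0.035 for Cox7a1, -0.49 to 0.070 for Cox8b, -0.12 to 0.030 for Cox6a1, -0.10 to 0.0081 for Cox8a, -0.0096 to 0.42 for Cox7a2l, -0.23 to 0.63 for Cox8c, -0.27 to 0.055 for Ndufa4l2 and -0.018 to 0.22 for Sdhc, and 1 week values of -0.17 to 0.056 for Ndufa4l2 and -0.041 to 0.81 for Cox8c.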
